A study of Caenorhabditis elegans with 6 samples.

Results

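The 10 genes cbd-1, perm-2, perm-4, cpg-1, cpg-2, chs-1, egg-1, egg-2, egg-3 and mbk-2 encode eggshell proteins and regulators of egg activation in Caenorhabditis elegans. They were taken by gene name, and all 10 were found among the 45132 genes listed for each library. RNA came from whole wild-type N2 worms given RNAi bacteria as larvae, either the control L4440 vector (3 libraries) or vit-5 RNAi (3 libraries), then moved as young adults to OP50 bacteria and collected when 5 days old. The study asked how silencing vit-5, a yolk protein gene, altered the transcriptome. Values are FPKM (fragment counts divided by transcript length and library size), so levels can be compared between genes within a library. FPKM are relative values, and differences between libraries also depend on how the libraries are scaled. Whether replicates came from separate cultures is not stated, so p-values describe the spread among these 6 libraries alone, and that spread may be technical.

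The worm eggshell is built by the oocyte around the time of fertilization, in layers laid down from the outside in. CBD-1, PERM-2 and PERM-4 belong to the vitelline layer that coats the oocyte, chitin made by CHS-1 forms the layer beneath it, and the chondroitin proteoglycans CPG-1 and CPG-2 fill the layer inside the chitin. EGG-1 and EGG-2 are oocyte membrane proteins needed for fertilization and eggshell formation, EGG-3 holds CHS-1 and the kinase MBK-2 at the oocyte cortex, and MBK-2 marks oocyte proteins such as the katanin MEI-1 for destruction once the egg is activated. Yolk reaches the same oocytes through the receptor RME-2.

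The 10 genes lie on 4 chromosomes, with 4 genes each on III and IV and 1 each on I and II. In WBcel235, perm-4 (gene ID 176932; IV, 1121494 to 1125107, minus strand) and perm-2 (gene ID 176933; IV, 1126790 to 1128865, plus strand) are neighbouring protein-coding genes that point away from each other, with 1682 bp between them. On III, egg-2 (7058527 to 7060583) and cpg-2 (7102090 to 7103990) stand 41.5 kb apart on the minus strand, while cpg-1 (4489359 to 4491392) and egg-1 (5728180 to 5730159) are on the plus strand. The remaining genes are cbd-1 (IV, 11372991 to 11377627), mbk-2 (IV, 13009158 to 13035961), egg-3 (II, 10882408 to 10884441) and chs-1 (I, 7554855 to 7559629). The Ensembl annotation of that build gives mbk-2 14 transcripts, cpg-1 and chs-1 2 each and the other 7 genes 1 each, and the files hold 1 value per gene. Spliced lengths range from 736 nt for perm-2 to 4288 nt for chs-1. Overlaps with other annotated genes reach at most 42 bp, and the highest value of any overlapping gene was 12.1 FPKM (lurp-1, beside egg-3). EGG-1 and EGG-2 are paralogues, and the sources used here do not say how fragments matching both genes were assigned, so the division between them is uncertain.

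The libraries differed in ways that the groups do not explain. In vit-5 RNAi replicate 3 all 13 larval and molting markers had their highest value, with a summed level of 632 FPKM against 185 and 197 in replicates 1 and 2 of that group and 139 to 403 in controls. The same library was lowest for 9 of the 10 oocyte and germline markers, whose summed level was 1937 FPKM there, 3218 to 3506 in the other vit-5 RNAi libraries and 2602 to 3613 in controls. Sperm markers were near 0 throughout, none of the 9 listed exceeding 0.545 FPKM, and none reached the filter on low values. Of the 10 early embryo markers, 7 were above 0 in every library, while hlh-27 and med-1 were listed at 0 in all. Their summed level was 41.6 to 66.3 FPKM in controls and 59.9 to 92.7 after vit-5 RNAi, most of it from sdz-27. That gene had 24.7 to 37.7 FPKM in controls and 53.8 to 62.3 after vit-5 RNAi, with no overlap, as in 30.8% of all genes tested. Of the 7 early embryo markers tested, 4 had a log2 fold change below 0 and 3 above, with a median of -0.20. In bulk RNA from whole worms, fewer oocytes and less RNA per oocyte cannot be told apart. The target vit-5 had 1768 ± 499 FPKM in control libraries and 63.4 ± 47.6 in those of vit-5 RNAi (SD, n = 3 each), a log2 fold change of -5.03 with a limma adjusted p of 0.0552.

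The 10 transcripts covered a range of more than 100-fold in control worms. The vitelline layer and proteoglycan genes, grouped below as secreted-layer genes, were the most abundant, with control means of 3150.2 ± 69.8 FPKM for perm-2, 2433 ± 186 for perm-4, 1899 ± 216 for cpg-1, 1788 ± 191 for cpg-2 and 444 ± 73.9 for cbd-1 (SD, n = 3 each). By mean FPKM, perm-2 ranked 96, perm-4 112, cpg-1 134 and cpg-2 139 among 12908 genes tested. The other 5, grouped as surface and cortex genes, followed, at 313 ± 54.5 FPKM for egg-1, 91.01 ± 12.97 for egg-2, 90.4 ± 17.7 for egg-3, 53.5 ± 17.5 for mbk-2 and 28.3 ± 6.87 for chs-1 (SD, n = 3 each). The perm-2 mean was 111 times that of chs-1. In control libraries the ranges of neighbours in this order overlapped for cpg-1 with cpg-2 and for egg-2 with egg-3, and for no other pair of neighbours. After vit-5 RNAi the order of means was the same, but neighbours overlapped everywhere except between cpg-2 and cbd-1 and between egg-1 and egg-2. Compared inside each library, the order of neighbours held in 3 of 3 vit-5 RNAi libraries, except cpg-1 above cpg-2 in 2 of 3. It also held in 3 of 3 control libraries, except egg-2 above egg-3 in 2 of 3. Together the 10 genes made up 0.784% to 0.959% of the FPKM sum in controls and 0.538% to 0.836% after vit-5 RNAi.

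**Figure D1:**
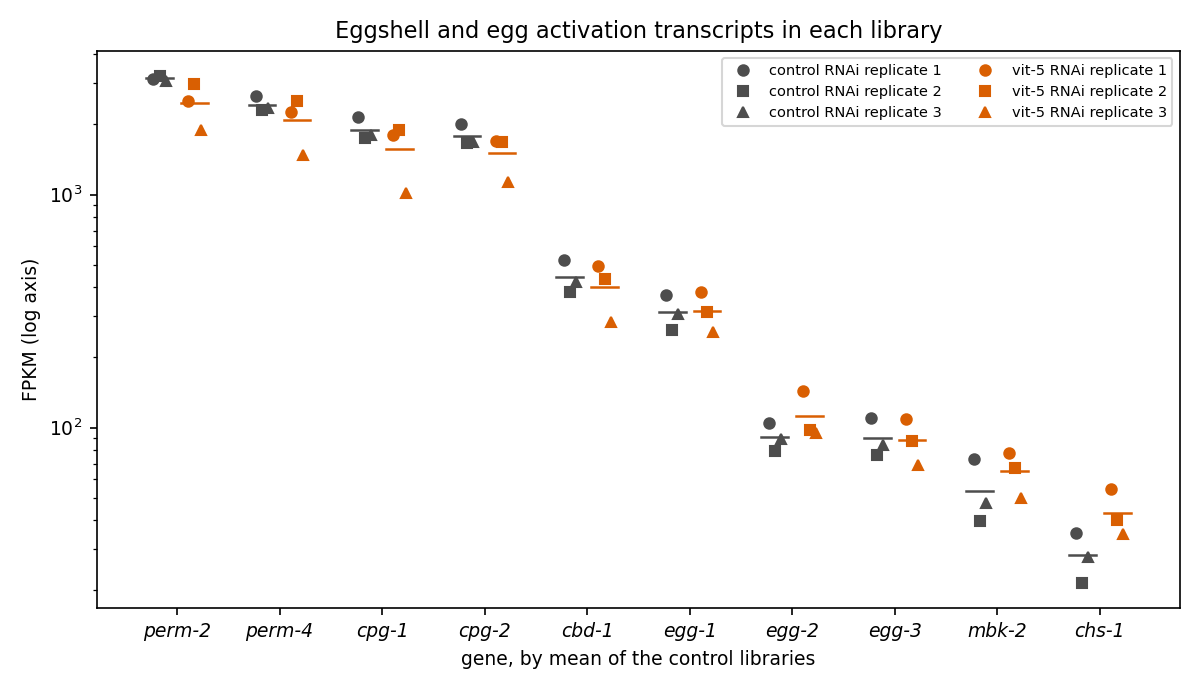
FPKM of each gene in each library on a log axis, with control RNAi in grey and vit-5 RNAi in orange, symbols for the replicate number and bars for the group means (n = 3). The 5 secreted-layer genes are the most abundant and vit-5 RNAi replicate 3 is their lowest library, while chs-1 is the least abundant gene and overlaps between groups by 1 library on each side.

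No member passed the test between groups. With limma on log2(FPKM + 1), adjusted over all 12908 genes tested, 0 of the 10 genes and 0% of all genes had an adjusted p under 0.05. At an unadjusted limma p under 0.05 1 member, chs-1, was higher after vit-5 RNAi and 0 were lower, while 26.2% of all genes were higher by that rule and 0.906% lower. Under median-of-ratios scaling these counts turned: 0 members were higher and the 5 secreted-layer genes were lower (unadjusted limma p 0.0141 to 0.045), beside 9.23% of all genes higher and 12.1% lower, and 0 members passed the adjusted threshold. All 10 members were above the filter on low values in every library. Their median log2 fold change was -0.10, beside 0.34 for all genes tested, and 6 of 10 were below 0, beside 20.5% of all genes. Its sign depended on single libraries, since it was 0.095 when vit-5 RNAi replicate 3 was left out, 0.038 when control replicate 1 was, -0.26 when vit-5 RNAi replicate 1 was and -0.21 when control replicate 2 was. The median over all genes depended on scaling and on level. Median-of-ratios scaling brought it to 0.03 and the member median to -0.46, while quantile scaling brought it to 0.011 and the member median to -0.12. By level, the median was 0.45 for genes of 1 to 10 FPKM, which included 0 members, and 0.32 for 10 to 100 FPKM, with 3 members. It was -0.03 for 100 to 1000 FPKM, with 3 members, and -0.23 from 1000 FPKM, with 4 members. In these last 2 ranges 54.5% and 79.3% of genes were below 0.

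The vitelline layer genes were each lower on average after vit-5 RNAi, within the error. The small secreted protein gene perm-2 had 3142, 3224 and 3085 FPKM in control replicates 1 to 3 and 2531, 2978 and 1896 FPKM in vit-5 RNAi replicates 1 to 3. It was the only member whose groups did not overlap, all 3 vit-5 RNAi libraries lying below all controls, as did 3.15% of all genes tested. Its log2 fold change was -0.38 (SE 0.18; 95% interval -0.78 to 0.03; limma adjusted p 0.206). Its neighbour perm-4 had 2645, 2299 and 2355 FPKM under control RNAi against 2269.7, 2513 and 1484 FPKM under vit-5 RNAi. For cbd-1, which encodes the chitin-binding scaffold that the PERM proteins depend on, the libraries held 526, 383 and 422 FPKM under control RNAi against 491, 432 and 285 FPKM under vit-5 RNAi. In both genes vit-5 RNAi replicate 3 lay below every control, and replicates 1 and 2 lay inside the control range except for perm-4 in replicate 1, which was just under it. The log2 fold changes were -0.25 (95% interval -0.72 to 0.21) for perm-4 and -0.16 (-0.68 to 0.35) for cbd-1, with limma adjusted p of 0.431 and 0.651.

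The proteoglycan genes followed the same pattern. The libraries held 2147, 1749.7 and 1801 FPKM of cpg-1 under control RNAi against 1803, 1896 and 1019.9 FPKM under vit-5 RNAi. Those of cpg-2 held 2008, 1669 and 1687 FPKM under control RNAi against 1693, 1688 and 1131 FPKM under vit-5 RNAi. Both genes had vit-5 RNAi replicates 1 and 2 inside the control range and replicate 3 below it. The log2 fold changes were -0.32 (95% interval -0.87 to 0.23; limma adjusted p 0.402) for cpg-1 and -0.27 (-0.70 to 0.16; limma adjusted p 0.366) for cpg-2.

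The median log2 fold change of these 5 genes was -0.27, with each value under 0, and its size rested on vit-5 RNAi replicate 3. Without that library the median was -0.03, cbd-1 turned to 0.067, and perm-2 was lowest at -0.20. That library was the lowest of the 6 for all 5 genes, and it was also the one richest in larval and molting markers and poorest in oocyte markers. With the mean level of the larval and molting markers as a covariate the median of the 5 genes was -0.17, with perm-2 at -0.31 and cbd-1 at -0.04. Genes of like abundance were lower too. Of the 213 tested genes with a mean of at least 1000 FPKM, 79.3% were below 0 and the median log2 fold change was -0.23, while the 4 members among them, perm-2, perm-4, cpg-1 and cpg-2, ranged from -0.38 to -0.25. Of the 1321 genes from 100 to 1000 FPKM the median was -0.03, and cbd-1, egg-1 and egg-2 ranged from -0.16 to 0.28.

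**Figure D2:**
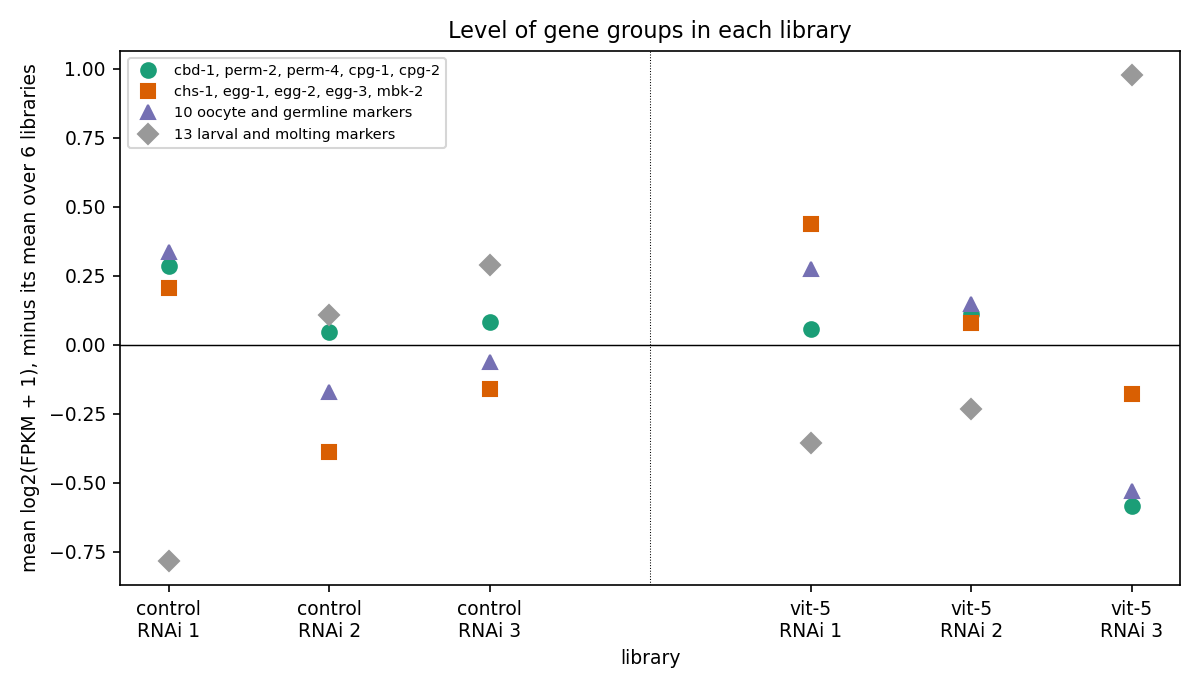
Mean log2(FPKM + 1) of 4 gene groups in each library, after subtracting each group's own mean over the 6 libraries. In vit-5 RNAi replicate 3 the secreted-layer genes (green circles) and oocyte and germline markers (purple triangles) are at their lowest, the surface and cortex genes (orange squares) are less low, and the larval and molting markers (grey diamonds) are at their highest.

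Among the surface and cortex genes, chs-1 had the highest ratio of group means. This gene for the chitin synthase that makes eggshell chitin had 35.3, 21.6 and 27.9 FPKM under control RNAi against 54.6, 39.9 and 34.8 FPKM under vit-5 RNAi. Only vit-5 RNAi replicate 3 reached into the control range, just under control replicate 1. The means were 28.3 ± 6.87 and 43.1 ± 10.3 FPKM (SD, n = 3 each), a ratio of 1.52, and the log2 fold change was 0.59 (SE 0.25; 95% interval 0.03 to 1.15; unadjusted limma p 0.0412, adjusted p 0.169). That fold change was 0.25 above the median of all genes tested, and 25.6% of genes had a higher one, so many genes had a fold change as high. It was above 0 under all 13 alternative settings, from 0.24 under median-of-ratios scaling to 0.76 without control replicate 1, and was 0.73 without vit-5 RNAi replicate 3.

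The kinase and scaffold genes showed no difference beyond the error. For mbk-2 the libraries held 73.1, 39.8 and 47.6 FPKM under control RNAi against 77.5, 67.2 and 49.96 FPKM under vit-5 RNAi, a log2 fold change of 0.30 (95% interval -0.30 to 0.90; limma adjusted p 0.471). For egg-3 they held 110.4, 76.6 and 84.3 FPKM under control RNAi against 109, 87.1 and 69.03 FPKM under vit-5 RNAi, a log2 fold change of -0.04 (-0.54 to 0.46; limma adjusted p 0.92). In both genes replicate 1 was the highest of its group. The value of mbk-2 ran from 0.11 on leaving out control replicate 2 to 0.54 on leaving out control replicate 1. The direction of egg-3 turned on leaving out control replicate 1 (0.11) or vit-5 RNAi replicate 3 (0.12). The value of mbk-2 covers all transcripts of the gene, so single forms of the kinase were not measured.

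The paralogues egg-1 and egg-2 showed no difference beyond the error either. The libraries held 371, 263 and 306 FPKM of egg-1 under control RNAi against 382, 314 and 257 FPKM under vit-5 RNAi, with a log2 fold change of 0.02 (95% interval -0.43 to 0.46; limma adjusted p 0.966). Those of egg-2 held 105, 79.2 and 88.9 FPKM under control RNAi against 143, 97.7 and 94.3 FPKM under vit-5 RNAi, with a log2 fold change of 0.28 (-0.19 to 0.74; limma adjusted p 0.397). The groups overlapped for both genes. The value of egg-2 ran from 0.085 on leaving out vit-5 RNAi replicate 1 to 0.38 on leaving out vit-5 RNAi replicate 3. The direction of egg-1 turned on leaving out control replicate 2 (-0.10) or vit-5 RNAi replicate 1 (-0.13). Under median-of-ratios scaling egg-1, egg-2 and mbk-2 had log2 fold changes of -0.35, -0.085 and -0.059, so the direction of these 3 genes depends on how libraries are scaled.

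**Figure D3:**
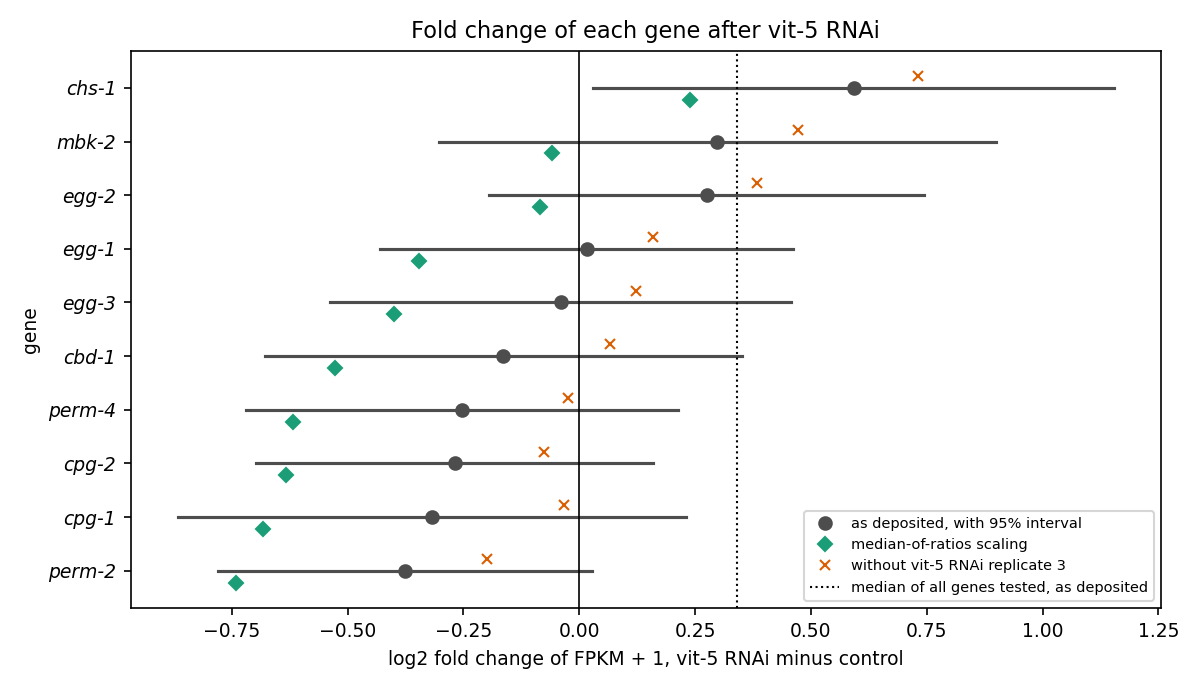
Log2 fold change of FPKM + 1 for each gene, vit-5 RNAi minus control, with the 95% interval of the fit (n = 3 against 3), the value after median-of-ratios scaling and the value without vit-5 RNAi replicate 3. Of the 10 intervals 9 include 0, the median of all genes tested stands at 0.34 (dotted line), and leaving out that replicate moves every gene upward while scaling moves every gene downward.

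Ratios between members within a library do not depend on the scaling of that library. Over the 45 pairs of members, the log2 ratio did not overlap between groups in 20 pairs, or 44.4%, while over all 82028836 pairs of tested genes it did not overlap in 26.1%. Of the 20 separated pairs 9 were those of chs-1, and among the other 9 members 11 of 36 pairs were separated, or 30.6%. Within the 5 secreted-layer genes 0 of 10 pairs were separated, and the differences of mean log2 ratio ran from -0.12 to 0.21. Of the 25 pairs of a secreted-layer gene with a surface or cortex gene, 13 were separated, and all 25 had a lower mean ratio after vit-5 RNAi, with a median difference of -0.53. The secreted-layer genes were also the more abundant members, and fold changes fell with level over all genes. The median log2 fold change of all genes was 0.32 at 10 to 100 FPKM, -0.03 at 100 to 1000 and -0.23 from 1000 FPKM. Whether the lower ratios went beyond this trend with level was not tested. Of the 10 pairs within the surface and cortex genes 7 were separated, a larger share than across the groups. Without chs-1 the counts were 8 of 20 across and 3 of 6 within the surface and cortex genes. Leaving out vit-5 RNAi replicate 3 gave 22 separated pairs of 45 and 13 of the 25. A pair separated with all libraries stays separated when a library is left out, so these counts could not fall. The share over all pairs of tested genes was not computed without that library. This division into secreted and surface genes follows the known location of the proteins but was made with the values known, and no test was run on it. Pairs share genes and so are not independent of each other.

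The gene chs-1 was higher relative to each of the other 9 members, with no overlap between groups in any of the 9 ratios. The log2 ratio of perm-2 to chs-1 was 6.47, 7.22 and 6.79 in control replicates 1 to 3 and 5.53, 6.22 and 5.77 in those of vit-5 RNAi. The log2 ratio of chs-1 to egg-3, whose product anchors the synthase, was -1.64, -1.82 and -1.59 in controls and -0.99, -1.13 and -0.99 after vit-5 RNAi. The closest approach was to mbk-2, with -0.77 in control replicate 3 and -0.75 in vit-5 RNAi replicate 2. Against all other tested genes above 0 in every library, the ratio of chs-1 was separated upward for 22% and downward for 6.65%. The ratio of egg-2 to egg-1 was also separated, with log2 ratios of egg-1 to egg-2 of 1.82, 1.73 and 1.79 in controls and 1.42, 1.68 and 1.45 after vit-5 RNAi. The nearest values, 1.73 and 1.68, were close, and 26.1% of all pairs of tested genes were separated by the same rule. This ratio also depends on how fragments matching both paralogues were assigned, which is not known. Between the neighbours perm-2 and perm-4 the log2 ratio was 0.38 ± 0.12 under control RNAi and 0.25 ± 0.10 under vit-5 RNAi (SD, n = 3 each), and the groups overlapped.

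**Figure D4:**
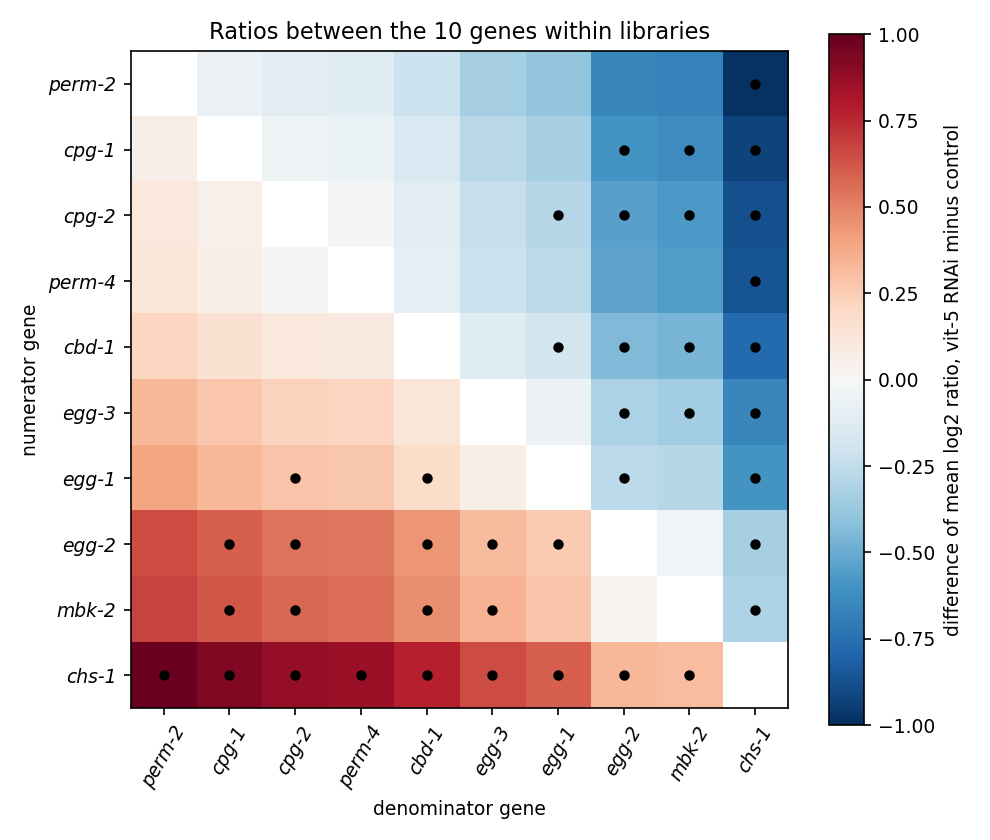
Difference between groups (vit-5 RNAi minus control) in the mean log2 ratio of each gene in a row to each gene in a column, measured within libraries (n = 3 each); black dots mark the pairs whose groups do not overlap. The row of chs-1 is above 0 with a dot against all 9 other genes, and the block of the 5 secreted-layer genes has no dot.

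Set against oocyte and germline markers of the same library, the groups of 7 of the 10 members overlapped. Relative to the mean log2 FPKM of the 10 markers, egg-3 stood at -1.31 ± 0.01 under control RNAi and -1.28 ± 0.17 under vit-5 RNAi (SD, n = 3 each). For chs-1 the values were -2.95, -3.15 and -2.89 in controls and -2.26, -2.59 and -2.10 after vit-5 RNAi, and for mbk-2 they were -1.90, -2.27 and -2.12 against -1.76, -1.83 and -1.58. These 2 genes were separated upward, as were 37.4% of all tested genes above 0 in every library. For cbd-1 they were 0.95, 1.00 and 1.03 in controls and 0.91, 0.85 and 0.93 after vit-5 RNAi. Its groups were separated downward, as were 0.71% of genes, with a difference of 0.10. The mean differences of perm-2, perm-4, cpg-1 and cpg-2 were larger, at -0.31, -0.18, -0.25 and -0.20, but their groups overlapped. Upward, egg-2 differed by 0.35, egg-1 by 0.09 and egg-3 by 0.03, also with overlap.

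With the mean level of the 13 larval and molting markers as a covariate, a choice made with earlier results of these data known, chs-1 rose by 0.69 on the log2 scale (limma adjusted p 0.0137, range over the alternatives 0.0137 to 0.573) and mbk-2 by 0.43 (limma adjusted p 0.0468, range 0.0468 to 0.971). In that fit 29.4% of all genes were called higher and 1.32% lower, so 2 of 10 members is no more than the background, and 0 members were called lower. The covariate was computed from the same libraries that it adjusts.

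Other genes of eggshell building and egg activation did not pass either, but 0% of all genes tested passed, so that count sets no list apart. Of 18 further eggshell genes found and tested, which make precursors, proteoglycan chains and the permeability barrier, 0 passed in either direction. Their median log2 fold change was 0.03, beside 0.34 for all genes tested. At an unadjusted limma p under 0.05, 3 of the 18 were higher and 1 lower, beside 26.2% and 0.906% of all genes. The lowest were gfat-1, for the entry enzyme of the hexosamine pathway, at 333 ± 31.2 and 252 ± 67.1 FPKM, and cpg-3, a further proteoglycan gene, at 1331 ± 59.7 and 1045 ± 123 FPKM. The highest were sqv-5, for a chondroitin synthase, at 26.4 ± 10.02 and 43.2 ± 13.7 FPKM, and emb-8, for a cytochrome P450 reductase, at 39.02 ± 8.29 and 59.8 ± 11.2 FPKM (control and vit-5 RNAi, SD, n = 3 each). The limma adjusted p of these 4 genes ran from 0.139 to 0.22. All vit-5 RNAi values of cpg-3 lay below all control values, as did 3.15% of all genes tested. Those of emb-8 lay above all control values, as did 30.8%, and the groups of gfat-1 and sqv-5 overlapped.

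Of 25 egg activation and early transition genes, 0 passed, beside 0% of all genes. The median log2 fold change was 0.01, beside 0.34 for all genes tested. By the same unadjusted rule, 3 of the 25 were higher and 0 lower, beside 26.2% and 0.906% of all genes. The egg-3 partners egg-4 and egg-5, inactive phosphatases that hold MBK-2 in check, had log2 fold changes of -0.23 each. The lowest were cyb-3, for a B-type cyclin, at 1016 ± 142 and 807 ± 271 FPKM, and pie-1, for a germline repressor of transcription, at 172 ± 22.9 and 146 ± 44.3 FPKM. The highest were emb-30, for a subunit of the anaphase-promoting complex, at 5.20 ± 1.501 and 11.5 ± 3.50 FPKM, and mel-26, for the adaptor that brings MEI-1 to its ubiquitin ligase, at 53.3 ± 16.2 and 90.04 ± 17.7 FPKM (control and vit-5 RNAi, SD, n = 3 each). All vit-5 RNAi values of emb-30 and mel-26 lay above all control values, as did 30.8% of all genes tested, and their limma adjusted p were 0.122 and 0.127.

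The mean profile of the 10 members over the 6 libraries was highest in replicate 1 of each group and lowest in vit-5 RNAi replicate 3. As deviations of log2(FPKM + 1) from each gene's mean it read 0.25, -0.17 and -0.04 in control replicates 1 to 3 and 0.25, 0.10 and -0.38 in vit-5 RNAi replicates 1 to 3. Among 7346 other tested genes with a mean of at least 10 FPKM, the 5 with the smallest root mean square difference from it were crn-1 (0.02), cdc-25.1 (0.03), cdc-48.1 (0.03), D2024.5 (0.03) and mei-1 (0.04), beside a median of 0.31 for all of these genes. Members, each part of that mean, lay from 0.06 for egg-3 to 0.25 for perm-2 and 0.33 for chs-1. The gene chs-1 thus lay farther from the member mean than the median of the other genes. The katanin gene mei-1, whose product is a substrate of MBK-2, had 91.9, 70.7 and 79.7 FPKM under control RNAi against 93.9, 84.2 and 57.4 FPKM under vit-5 RNAi.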

How the data were processed

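The authors deposited 1 FPKM value per gene for each of 6 libraries of total RNA, per the file headers. Per the submitters' processing notes, Bowtie2 2.2.3, TopHat2 2.0.12, HTSeq 0.6.1, DESeq 1.18.0 and WBcel235 were used, with no role given. The program behind the FPKM, strandedness and depth are not named in any source used here. From the spacing of low values came rough depths of 16700000 to 21100000 fragments, but the share of low values within 0.1 of a whole fragment was 35% to 38.4% (20% if evenly spread), so counts were not recovered and no counting interval is given. Values at or below 0.0001, the deposited zero, were set to 0. Coordinates came by gene ID from a RefSeq table of WBcel235, in which 45010 of 45132 IDs matched, and transcripts from the Ensembl annotation of the same build.

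The 12908 genes that reached 1 FPKM in 3 or more libraries were fitted as log2(FPKM + 1) in limma 3.58.1 (R 4.3.3), with group as the only term and a mean-variance trend. This scale understates the fold change of a gene with low FPKM. P-values are 2-sided, adjusted by Benjamini and Hochberg over all genes tested, with a threshold of 0.05. The procedure was tested on simulated data with independent noise for each gene. Deviations shared by many genes, as seen in these libraries, were not simulated, so that test does not cover them. Pearson's r between 2 libraries, on log2 values, ran from 0.927 to 0.989 for libraries of the same group and from 0.928 to 0.984 for libraries of different groups, and at most 0.0697% of values were equal in any pair of libraries. Members, role groups and lists were chosen with earlier results of these data known. The named genes were the 10 members, the 2 highest and 2 lowest fold changes of each further list, the 5 genes closest in profile and vit-5. The genes egg-4, egg-5 and lurp-1 were added after their values were seen. The names uap-1, syn-4 and trp-3 were not matched in the files and were not analysed here. Figures were drawn with matplotlib 3.10.9 in Python 3.11.15.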

Additional observations from a re-analysis of the deposited data

How the results depend on the processing

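Of 130 fold changes recomputed for the 10 members under 13 alternatives, 116 kept their direction and their side of the threshold, 3 passed it and 11 changed sign. Sign changes were those of egg-1 (-0.35 under median-of-ratios scaling, -0.27 under upper-quartile scaling, -0.10 and -0.13 on leaving out control replicate 2 or vit-5 RNAi replicate 1), egg-2 (-0.085 and -0.0066 under the same scalings), mbk-2 (-0.059 under median-of-ratios scaling), egg-3 (0.066 with the larval and molting covariate, 0.11 when control replicate 1 and 0.12 when vit-5 RNAi replicate 3 was left out), with cbd-1 (0.067 without vit-5 RNAi replicate 3). Leaving out 1 library at a time gave ranges of -0.13 to 0.16 for egg-1, 0.085 to 0.38 for egg-2, 0.11 to 0.54 for mbk-2, 0.41 to 0.76 for chs-1, -0.20 to 0.12 for egg-3, -0.33 to 0.067 for cbd-1, -0.52 to -0.20 for perm-2, -0.40 to -0.024 for perm-4, -0.48 to -0.033 for cpg-1 and -0.37 to -0.075 for cpg-2, and -0.26 to 0.095 for the member median. The cause was not tested. The member median was -0.46 under median-of-ratios scaling. The median of all genes was 0.16 with no filter on low values, 0.028 under median-of-ratios, 0.096 under upper-quartile and 0.011 under quantile scaling. Leaving out 1 library at a time gave 0 to 5 genes past the threshold, with 4 without vit-5 RNAi replicate 1 and 5 without replicate 3, none of them a member. With the larval and molting covariate 3960 of 12908 genes passed, or 30.7%. Among them were 2 of 10 members, 5 of 18 eggshell building and 4 of 25 egg activation genes. All of these were higher, beside 29.4% of all genes called higher.

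With the replicate number as a block 3806 genes passed (3679 higher, or 28.5%, and 127 lower). Among them were 1 of 10 members, 4 of 18 eggshell building and 4 of 25 egg activation genes, all higher. The member was chs-1 (log2 fold change 0.59, limma adjusted p 0.0241). Deviations of same-numbered libraries correlated across genes at 0.753, 0.0339 and 0.681 for numbers 1 to 3, so number 2 was not paired by the data. Control replicate 2 correlated best with vit-5 RNAi replicate 3 (0.348), so not every library correlated best with its own number. The FPKM files give no read counts, so the precision of genes at low FPKM, such as emb-30, is not known.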
